A study of Mus musculus with 32 samples.

Results

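The sites described here carried peaks of histone H3 lysine 9 trimethylation (H3K9me3) in male mouse germ cells at E13.5. Stages marked E are counted in days of embryonic development. At each of the 3 later stages examined the sites fell under the coverage limit given next, though some still held part of a later peak. Each autosome was divided into bins of 1 kb counted from position 0, and a bin was called in a peak list when at least 50% of its bases lay in peaks of that list. An E13.5-only bin was called in both E13.5 lists, 1 from each genotype, and in none of the 6 lists of E16.5, P0 and P3. There were 5346 such bins, 5.346 Mb in all, among 142394 bins called in both E13.5 lists and 494208 autosomal bins called in at least 1 of the 8 lists. The E13.5-only share of the bins called in both E13.5 lists was 3.75% (95% Wilson interval 3.66 to 3.85%). With the E13.5 het list left out of the rule there were 15047 bins, with the E13.5 KO list left out 8882, and with the same number of longest peaks taken from every list 8134. Adjacent bins were joined into 4091 runs. These bins were chosen by the peak lists themselves, that is, the sites were selected on peak coverage, so their coverage in the 8 lists is given as a description and without a test.

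The series mapped H3K9me3 by chromatin immunoprecipitation and sequencing (ChIP-seq) to examine how loss of Morc1 affects the chromatin of gonocytes, the male germ cells between sex determination and the start of spermatogenesis. Cells came from testes of mice with an Mvh-Venus transgene, a fluorescent reporter of germ cells, which all groups carried. The genotypes were Morc1 (+/-), called het, and Morc1 (-/-), called KO, each sampled at E13.5, at E16.5, on the day of birth (P0) and on postnatal day 3 (P3). Every group had 2 H3K9me3 samples but 1 peak list that named no replicate, so no value here has a replicate error, and intervals cover counting error only, over neighbouring bins that are not independent. Coordinates are those of the lists, on mm10 per the submitters' processing notes. The number of animals behind a sample is not given in the sources used here. Peak lists hold no expression values, so neither the germ cell identity nor the knockout was checked in them. In a bulk sample, fewer cells with the mark and less mark per cell cannot be told apart.

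H3K9me3 is laid down by SETDB1 and the SUV39H enzymes, is bound by HP1 proteins, and marks heterochromatin, above all at transposons and repeat-rich gene families. Male germ cells at this age have erased most of their DNA methylation and regain it before birth. MORC1 is a germ-cell ATPase of the nucleus that takes part in silencing transposons. CpG-rich promoters, those dense in C followed by G, usually carry little DNA methylation, and the promoters of many germline genes are an exception in somatic cells.

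The base composition of promoters, which the rule did not use, differed between E13.5-only sites and sites marked at all stages, so promoter sequences are shown first. No genome sequence was used here, and the RefSeq promoter table (GRCm38.p6, the assembly that mm10 follows) holds 250 bases before and 50 bases after each start site. Printed below are the 250 bases before the start, 5′ to 3′ on the strand of the gene, with each CG dinucleotide in capitals. The first set belongs to genes of lists named further on whose start site lay in an E13.5-only bin: the piRNA genes Mael, Asz1 and Mov10l1, the meiosis genes Meioc and Sycp1, the imprinted gene Mest, and the developmental transcription factor genes Hoxd10, Sox14 and Foxi3. They were picked as CpG-rich examples after their values were seen.
Mael, chr1:166238745-166238994, minus strand: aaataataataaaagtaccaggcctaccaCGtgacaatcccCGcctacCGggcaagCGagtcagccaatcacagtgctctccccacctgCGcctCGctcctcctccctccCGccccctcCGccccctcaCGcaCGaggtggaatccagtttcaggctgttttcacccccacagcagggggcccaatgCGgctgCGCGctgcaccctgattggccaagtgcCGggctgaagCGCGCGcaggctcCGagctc
Asz1, chr6:18109062-18109311, minus strand: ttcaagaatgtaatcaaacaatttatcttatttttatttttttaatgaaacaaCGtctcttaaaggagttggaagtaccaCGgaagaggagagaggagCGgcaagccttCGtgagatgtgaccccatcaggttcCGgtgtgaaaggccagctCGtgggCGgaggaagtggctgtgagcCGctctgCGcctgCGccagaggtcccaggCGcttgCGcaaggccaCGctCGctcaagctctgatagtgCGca
Mov10l1, chr15:88982744-88982993, plus strand: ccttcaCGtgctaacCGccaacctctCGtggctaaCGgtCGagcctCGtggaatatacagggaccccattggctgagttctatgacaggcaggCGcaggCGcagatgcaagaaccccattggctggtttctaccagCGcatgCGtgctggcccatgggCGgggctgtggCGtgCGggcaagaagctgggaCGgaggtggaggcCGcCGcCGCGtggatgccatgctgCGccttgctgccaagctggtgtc
Meioc, chr11:102665335-102665584, plus strand: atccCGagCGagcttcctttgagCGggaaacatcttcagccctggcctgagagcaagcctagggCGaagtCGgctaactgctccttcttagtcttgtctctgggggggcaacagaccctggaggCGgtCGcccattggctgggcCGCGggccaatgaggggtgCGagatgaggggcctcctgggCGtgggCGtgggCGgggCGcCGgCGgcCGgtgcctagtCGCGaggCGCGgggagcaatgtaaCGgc
Sycp1, chr3:102936101-102936350, minus strand: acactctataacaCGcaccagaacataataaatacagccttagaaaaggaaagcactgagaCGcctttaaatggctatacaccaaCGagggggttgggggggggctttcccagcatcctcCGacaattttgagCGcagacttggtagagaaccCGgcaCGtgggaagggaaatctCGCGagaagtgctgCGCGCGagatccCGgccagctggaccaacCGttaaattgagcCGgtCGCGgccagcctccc
Mest, chr6:30737800-30738049, plus strand: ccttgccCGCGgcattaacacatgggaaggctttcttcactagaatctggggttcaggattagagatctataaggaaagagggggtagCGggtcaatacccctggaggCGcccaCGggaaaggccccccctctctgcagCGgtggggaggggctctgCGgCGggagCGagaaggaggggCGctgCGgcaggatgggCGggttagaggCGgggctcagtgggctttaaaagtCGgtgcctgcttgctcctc
Hoxd10, chr2:74691641-74691890, plus strand: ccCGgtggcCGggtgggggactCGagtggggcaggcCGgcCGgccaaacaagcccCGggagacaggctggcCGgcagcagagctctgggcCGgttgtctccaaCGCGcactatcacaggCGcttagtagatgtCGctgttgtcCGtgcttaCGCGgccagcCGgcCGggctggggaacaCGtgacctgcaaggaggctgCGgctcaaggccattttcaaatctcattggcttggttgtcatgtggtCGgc
Sox14, chr9:99876171-99876420, minus strand: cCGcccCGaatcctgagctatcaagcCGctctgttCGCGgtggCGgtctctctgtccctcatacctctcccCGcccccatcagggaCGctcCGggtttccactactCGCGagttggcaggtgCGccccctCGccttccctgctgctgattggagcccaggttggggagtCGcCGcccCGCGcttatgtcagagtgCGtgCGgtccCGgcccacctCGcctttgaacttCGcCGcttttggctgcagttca
Foxi3, chr6:70956356-70956605, plus strand: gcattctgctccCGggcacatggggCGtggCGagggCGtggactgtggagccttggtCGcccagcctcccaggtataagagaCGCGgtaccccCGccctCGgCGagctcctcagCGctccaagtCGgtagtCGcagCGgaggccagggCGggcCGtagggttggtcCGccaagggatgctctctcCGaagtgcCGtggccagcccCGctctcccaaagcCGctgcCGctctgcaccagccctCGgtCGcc
The second set is for contrast and belongs to a pair of genes whose start sites were called in all 8 lists, the zinc finger gene Zfp735 and the cytochrome P450 gene Cyp2c39.
Zfp735, chr11:73688528-73688777, plus strand: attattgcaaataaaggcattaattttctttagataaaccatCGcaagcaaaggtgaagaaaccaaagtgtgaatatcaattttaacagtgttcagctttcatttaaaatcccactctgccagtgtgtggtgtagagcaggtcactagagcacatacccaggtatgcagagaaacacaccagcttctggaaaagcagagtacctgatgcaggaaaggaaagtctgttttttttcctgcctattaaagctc
Cyp2c39, chr19:39510572-39510821, plus strand: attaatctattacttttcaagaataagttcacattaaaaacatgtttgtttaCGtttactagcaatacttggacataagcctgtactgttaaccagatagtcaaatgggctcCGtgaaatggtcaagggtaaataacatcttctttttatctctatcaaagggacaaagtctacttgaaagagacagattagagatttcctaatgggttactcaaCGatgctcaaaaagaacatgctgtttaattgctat
The first set held 18, 15, 19, 22, 17, 14, 20, 23 and 24 CG dinucleotides in the order printed. Zfp735 held 1 and Cyp2c39 held 3.

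Start sites of genes were frequent in E13.5-only bins. Of 31388 autosomal promoter windows, 243 had their start site in an E13.5-only bin (0.774% of all windows), which is 45.5 windows per 1000 bins. Bins called in all 8 lists held 5.26 windows per 1000 bins, and all autosomal bins held 12.8. The 243 windows belonged to 226 gene symbols, 147 of them protein-coding and 79 long noncoding.

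A window of 300 bases was called CpG-rich when it held at least 15 CG dinucleotides, a limit set after the data had been seen. Of the 243 windows, 119 were CpG-rich (49.0%, interval 42.8 to 55.2%). The share was 35.2% over all autosomal windows and 1.35% (0.657 to 2.77%) over the 517 windows called in all 8 lists. The median window in E13.5-only bins held 14 CG dinucleotides and was 56.7% G and C. In bins called in all 8 lists the medians were 1 CG dinucleotide and 41.3% G and C.

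Read from the side of the promoters, 1051 windows had their start site called in both E13.5 lists, and 243 of them (23.1%) were called in no later list. Among the 157 CpG-rich windows of these, 119 were E13.5-only (75.8%, interval 68.5 to 81.8%) and 7 were called in all 8 lists (4.46%). Among the 894 other windows, 124 were E13.5-only (13.9%, 11.8 to 16.3%) and 510 were called in all 8 lists (57.0%). CpG-rich windows had the higher E13.5-only share on 17 of the 17 autosomes where both classes were called at E13.5. The share followed the CG count within the others too, with 95 of 221 windows of 5 to 14 CG dinucleotides (43.0%) and 29 of 673 windows with under 5 (4.31%). The part of sequencing bias by base composition in this result was not tested.

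Because the share of E13.5-only bins differed with peak length (11.3% of bins under E13.5 peaks of less than 2 kb and 1.89% under peaks of at least 5 kb), the promoter classes were also compared within classes of peak length. Where the longest E13.5 peak over the start site was under 2 kb, 29 of 33 CpG-rich windows (87.9%) and 52 of 151 other windows (34.4%) were E13.5-only. At 5 kb or more, 26 of 44 CpG-rich windows (59.1%) and 16 of 484 others (3.31%) were. The CpG-rich share was the higher in each of the 4 length classes, and the intervals of the classes did not overlap between CpG-rich and other windows.

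The lists differed in how many CpG-rich promoters they called at all. The E13.5 het list called 198 CpG-rich windows and the E13.5 KO list 402. The later lists called 40 (E16.5 het), 38 (E16.5 KO), 74 (P0 het), 40 (P0 KO), 33 (P3 het) and 29 (P3 KO). The E13.5 lists thus held the most CpG-rich promoters although they were the shortest, with 159747 and 181988 autosomal bins called against 268662 to 323988 in the later lists. As a share of all windows called in a list, CpG-rich windows made up 16.2% and 23.8% at E13.5 and from 1.60% to 4.47% later. All of these shares lay below the 35.2% over all autosomal windows. The E13.5 lists called 1.79% (het) and 3.64% (KO) of all CpG-rich windows.

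**Figure D1:**
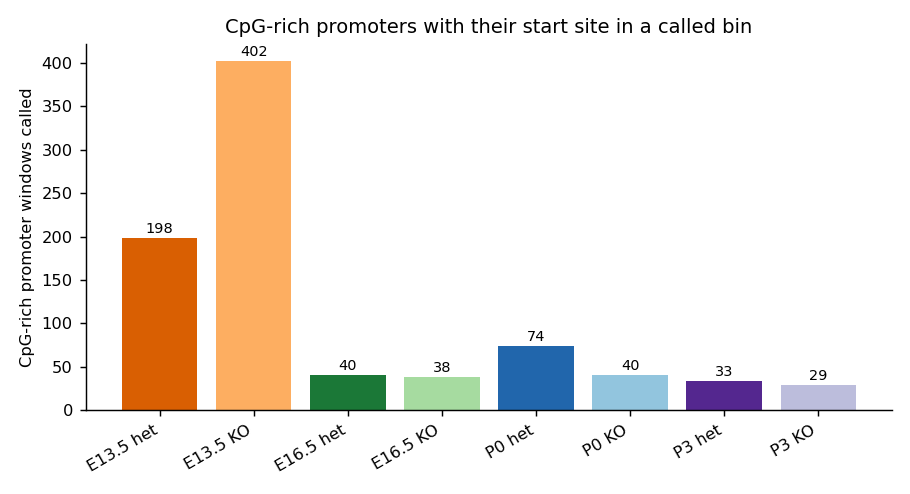
CpG-rich promoter windows (at least 15 CG dinucleotides in 300 bases) whose start site lay in a called bin, as a count for each of the 8 peak lists. The E13.5 bars stand at 198 (het) and 402 (KO), and no later bar is above 74.

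A pair of short motifs was searched on both strands of the 300-base windows. CACGTG, the E-box bound by bHLH factors such as MYC and MAX, occurred in 25 of the 119 CpG-rich windows in E13.5-only bins (21.0%, interval 14.7 to 29.2%) and in 1250 of all 11053 CpG-rich autosomal windows (11.3%, 10.7 to 11.9%). TGCCGC occurred in 22 (18.5%, 12.5 to 26.4%) against 24.9% of all CpG-rich windows. Over all 31388 windows the shares were 7.15% for CACGTG and 11.6% for TGCCGC. The interval for CACGTG lay above its share in CpG-rich windows at large, and the interval for TGCCGC included its own. No comparison was made with CpG-rich windows called at E13.5 and also later, so the motif is not tied to E13.5-only sites. Over windows of any CG count, CACGTG occurred in 11.5% in E13.5-only bins. In bins called in 1 E13.5 list and nowhere else it was 5.10% (het) and 10.7% (KO). Windows of neighbouring start sites can overlap and were counted singly. The motifs can overlap by 2 bases at a shared TG. Among the first set of sequences printed above, CACGTG is found in Mael, Mov10l1, Sycp1 and Hoxd10.

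Germline genes were among those with E13.5-only promoters. Over all autosomal protein-coding genes, 147 of 605 start sites called in both E13.5 lists were E13.5-only. Among 5 piRNA pathway genes with such a start site, 4 were E13.5-only. The windows of all 5 were CpG-rich, and the count is near the 75.8% of CpG-rich windows at large. Mael, whose product works in piRNA-guided silencing in the nuage, and Asz1, which encodes an ankyrin-repeat protein of the same granules, had 1000 bp of their promoter bin in peaks of both E13.5 lists and 0 bp in all 6 later lists. The bin of Mov10l1, an RNA helicase gene of piRNA biogenesis, held 880 bp (het) and 1000 bp (KO) at E13.5 and 0 bp in the later lists. Henmt1, which encodes the methyltransferase of piRNA ends, had 500 bp (het) and 764 bp (KO), at the limit of the rule in het, and 0 bp later.

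The fifth piRNA gene was Ddx4, which encodes the germ cell helicase also named Mvh or Vasa. Its promoter window was CpG-rich, with 38 CG dinucleotides, yet its bin was fully covered in both E13.5 lists and called in 5 of the 6 later ones. It held 1000 bp in E16.5 het, 0 bp in E16.5 KO, 1000 bp in P0 het, 911 bp in P0 KO and 1000 bp in both P3 lists. The E13.5 peaks over it were 63376 bp (het) and 83204 bp (KO) long. All animals carried the Mvh-Venus transgene, and reads from any copy of this region in the transgene and from the gene itself cannot be told apart in the lists.

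Of the meiosis genes, the start sites of 3 were called in both E13.5 lists and all 3 were E13.5-only. Meioc, needed for progression through meiotic prophase, had 616 bp (het) and 1000 bp (KO) of its promoter bin in E13.5 peaks. Sycp1, which encodes the transverse filament of the synaptonemal complex, had 530 bp (het) and 652 bp (KO). Sycp2, which encodes an axial element protein of that complex, had 1000 bp in both. Each of the 3 bins held 0 bp in all 6 later lists, and the windows of Meioc and Sycp1 were CpG-rich (28 and 21 CG dinucleotides) while that of Sycp2 held 10. Gene bodies of the whole meiosis list went the other way. They were called over 36 kb (het) and 46 kb (KO) at E13.5 and over 86 to 128 kb later. Over all protein-coding genes it was 32040 and 37983 kb at E13.5 and 50533 to 77334 kb later. The body of Sycp1 was called over 6 and 5 kb at E13.5 and 12 and 11 kb at P3. For Sycp2 it was 1 kb in both and then 3 and 7 kb, while Meioc had 0 kb in all 6 later lists. Further testis and germ cell genes with CpG-rich E13.5-only promoters, picked after their values were seen, were Boll (543 bp in het and 822 bp in KO, 0 bp later), Tex101 (577 and 875 bp, 0 bp later) and Spata22 (634 and 1000 bp, with 295 bp in P0 het and 0 bp in the other later lists).

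Gene bodies were counted apart from start sites. Autosomal protein-coding gene bodies, to which a bin was assigned by its midpoint, held 27310 bins called in both E13.5 lists, of which 2455 were E13.5-only (8.99%). In the piRNA pathway list it was 8 of 81 bins (9.88%) and in the meiosis list 3 of 29 (10.3%), both near the share of all genes. Most of the 81 bins of the piRNA list lay in genes without any E13.5-only bin, so the pooled share says little about the other genes. Over all 20665 genes, 1559 (7.54%) had at least 1 E13.5-only bin, which is 29% of the 5367 genes with a bin called in both E13.5 lists. By genes, the piRNA list stood above this, with such a bin in 6 of 20 genes (30%) and in 6 of the 10 with a bin called in both E13.5 lists (60%), which included the Tudor-domain genes Tdrd12 (2 of 4 bins), Tdrd5 (1 of 1), Tdrd9 (1 of 3) and Tdrkh (1 of 3). In the meiosis list it was 3 of 26 genes, and 3 of the 8 with a bin called in both E13.5 lists.

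Hox genes, which encode the homeodomain factors of body axis patterning, stood at the top of the gene lists. All 13 bins called in both E13.5 lists in bodies of Hox genes were E13.5-only, and all 9 of the 39 Hox genes with such a bin were in this class. Hoxa3 held 3 of 3 bins, Hoxc13 3 of 3, Hoxa6 2 of 2 and Hoxd3 2 of 2, and the rest 1 of 1, namely Hoxa9, Hoxb2, Hoxb3, Hoxd9 and Hoxd10. Some of these gene models overlap and share bins. The start sites of Hoxd10 (843 bp in het, 1000 bp in KO) and Hoxd11 (663 and 1000 bp) lay in E13.5-only bins with 0 bp in every later list. The Hoxd10 window held 22 CG dinucleotides and the Hoxd11 window 4.

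Across whole clusters, from the first to the last gene, peaks covered 5.62 kb of the Hoxc cluster in the het list and 25.3 kb in the KO list of E13.5, against 1.00 kb in P3 KO and 0 kb in the other 5 lists. The Hoxa cluster had 9.02 kb (het) and 36.6 kb (KO) at E13.5 and from 1.00 to 2.25 kb later. The Hoxd cluster had 5.89 and 20.7 kb at E13.5 and from 0 to 1.55 kb later. Hoxb went less far, with 9.23 and 42.1 kb at E13.5 and from 5.53 to 9.22 kb later, so that the E13.5 het value was barely above the highest later one. Counted over whole clusters and not gene bodies, the E13.5-only bins were 5 of 6 bins called in both E13.5 lists in Hoxa and 3 of 6 in Hoxb. They were 5 of 5 in Hoxc and 5 of 5 in Hoxd. In each of the 4 clusters the E13.5 KO list covered several times the length of the E13.5 het list. In Hox gene bodies the ratio of KO to het called length at E13.5 was 4.28, against 1.19 over all protein-coding genes. With 1 list per group, this difference between genotypes has no replicate check.

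**Figure D2:**
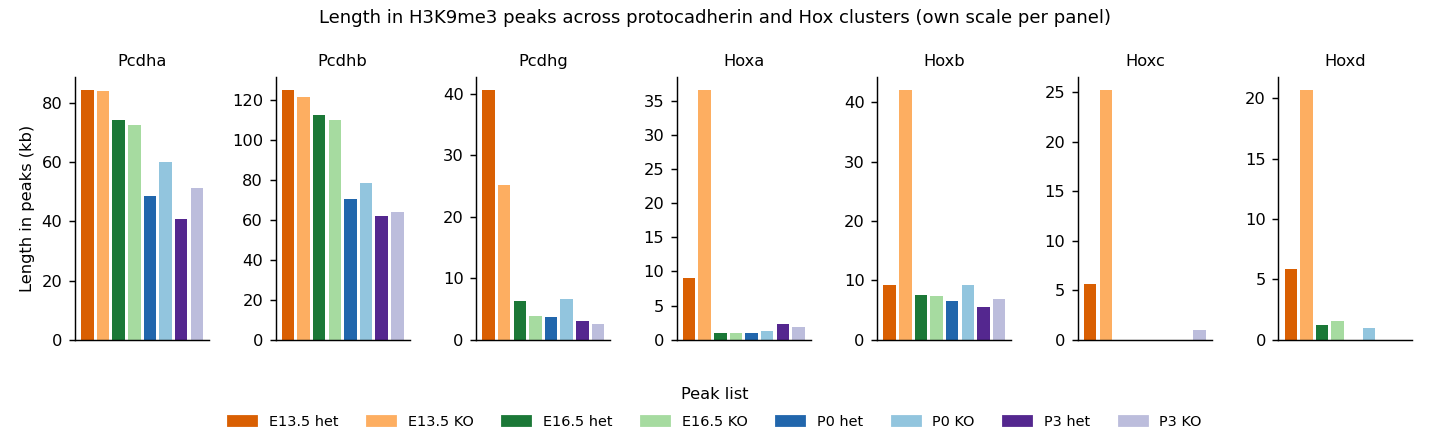
Length in H3K9me3 peaks (kb) across the protocadherin clusters Pcdha, Pcdhb and Pcdhg and the 4 Hox clusters, with 1 bar per peak list and a separate scale starting at 0 in each panel. The Hox panels are highest in E13.5 KO (20.7 to 42.1 kb), and the Pcdhg panel is highest in E13.5 het (40.6 kb).

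Other families of developmental transcription factors (symbols that start with Sox, Fox, Pax, Tbx, Lhx, Nkx or Irx, and the sine oculis homologues such as Six2 and Six3) were next, with 71 of 170 bins E13.5-only (41.8%). They included 33 of the 42 family members with a bin called in both E13.5 lists, out of 121 genes. Sox5, a long gene that encodes an SOX factor of cartilage and neural development, held 12 of 56 bins. Lhx5, a LIM-homeodomain gene of the forebrain, held 5 of 6, Pax1, a gene of vertebral patterning, 4 of 4, and Pax7, a gene of muscle stem cells, 4 of 4. Pax1 was called at E13.5 over 4 kb (het) and 6 kb (KO), and over 0 kb in every later list. Lhx5 was called over 7 and 8 kb at E13.5, 1 kb in P3 het and 0 kb in the other 5 later lists.

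Several smaller members had the same form. Tbx2 and Tbx3, T-box genes of limb and heart, held 3 of 3 bins each, and Lhx1, Nkx2-1, Nkx2-2, Nkx2-5, Pax8 and Sox14 held 2 of 2 each. All of them but Pax8 were called over 0 kb in all 6 later lists. Other members held a smaller share, such as Lhx9 and Pax3 (2 of 4 each), Pax5 (2 of 5) and Sox6 (2 of 7). Pax5 was called over 7 to 11 kb in the later lists. Sox5 also differed, since over its whole body it was called over 67 kb (het) and 64 kb (KO) at E13.5 and over 53 to 105 kb later. Over the families as a whole, called length was 215 kb (het) and 364 kb (KO) at E13.5 and 183 to 373 kb later, so the E13.5 values lay within the later range.

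Of 9 start sites of these families called in both E13.5 lists, 8 genes were E13.5-only, namely Foxd1, Foxf2, Foxi3, Irx3, Lhx6, Lhx9, Sox14 and Sox30. The share was 147 of 605 over all protein-coding genes and 75.8% over CpG-rich windows, and of the 8 genes all but Irx3 and Lhx9 had a CpG-rich window. Sox14 (1000 bp in both genotypes) and Foxi3 (774 bp in het, 940 bp in KO) had 0 bp later, while Irx3 (705 and 762 bp) kept 464 bp in P3 het, just under the limit for a call. The exception was Tbx19, with 7 CG dinucleotides in its window and 1000 bp in each of the 8 lists. Further homeobox genes with CpG-rich E13.5-only promoters, picked after their values were seen, were Dlx1, Dlx2, En1, Isl1, Barhl2, Gsx2 and Uncx, which each had 0 bp in all 6 later lists.

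The genes of protocadherins, which are cell adhesion proteins, held the most E13.5-only bins of any locus. The RefSeq models of the alpha, beta and gamma clusters on chromosome 18 are nested and share the same bins, so they are counted once per cluster. In the gamma cluster 12 of 17 bins called in both E13.5 lists were E13.5-only, in the alpha cluster 15 of 72, and in the beta cluster 7 of 115. The gamma cluster was called over 40 kb in E13.5 het and 25 kb in E13.5 KO, so most het bins there were not among the 17. The 2 genotypes were closer in the alpha cluster (86 and 85 kb) and the beta cluster (126 and 124 kb). Over the protocadherin list 36 of 179 bins (20.1%) were E13.5-only. Called length over the whole list was 236 kb (het) and 243 kb (KO) at E13.5 and 288 to 351 kb later. Pcdh15, a long gene outside these clusters, was called over 77 and 95 kb at E13.5 and 186 to 219 kb later. By gene model, Gm37013 had the most E13.5-only bins of any protein-coding gene (32 of 236), followed by Gm38666, Gm38667, Pcdha1 (15 of 72), Pcdhga1 (12 of 17), Sox5, Pcdha2, Pcdha3, Pcdhga6 and Pcdhga7. The highest shares among genes with at least 10 bins called in both E13.5 lists were those of Pcdhga6, Pcdhga7 and Pcdhgb4 (84.6% each) and of Pcdhga8 and Pcdhga9 (83.3% each).

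Peaks covered 40.6 kb (het) and 25.1 kb (KO) of the gamma cluster at E13.5. The later het lists covered 6.24, 3.76 and 3.003 kb of it at E16.5, P0 and P3, and the later KO lists 3.81, 6.64 and 2.51 kb. The E13.5 lists stood apart from all later ones, none of which covered more than 6.64 kb. The alpha cluster was graded, with 84.5, 74.2, 48.5 and 40.9 kb covered in the het lists from E13.5 to P3 and 84.0, 72.6, 60.0 and 51.2 kb in the KO lists. The beta cluster had 125 and 122 kb at E13.5 and 61.7 and 63.8 kb at P3. In the gamma cluster, unlike the Hox clusters, the het list at E13.5 covered more than the KO list.

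Imprinted genes, expressed from 1 parental copy, held 27 of 265 bins (10.2%), against 8.99% over all genes, and 220 of the 265 lay in Snrpn. By genes, the imprinted list stood above all genes. An E13.5-only bin lay in 9 of 26 genes (34.6%, against 7.54%). Of the 13 imprinted genes with a bin called in both E13.5 lists these were 69.2%, against 29.0%. Mest, a paternally expressed gene, held 3 of 3 bins, was called over 3 kb in both E13.5 lists and over 0 kb in all 6 later lists, and had its CpG-rich start site in an E13.5-only bin with 1000 bp in both E13.5 lists. Gnas held 3 of 4 bins, Magel2 2 of 3, Usp29 7 of 13 and Snrpn 8 of 220. Peg3, Impact, Peg10 and Rasgrf1 held 1 bin each. The Snrpn locus was called over 224 kb (het) and 251 kb (KO) at E13.5 and 126 kb (het) and 140 kb (KO) at P3, and of its 3 start sites called in both E13.5 lists the E13.5-only one was the most downstream, with 7 CG dinucleotides in its window. Among noncoding imprinted genes, Meg3 held 2 of 2 bins, Kcnq1ot1 9 of 55 and Airn 0 of 2, and the Kcnq1 gene that surrounds Kcnq1ot1 held 11 of 61.

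Several shorter lists had few bins. Genes of H3K9 and DNA methylation held 7 of 20 bins, 5 of 9 in Atf7ip, which encodes a partner of SETDB1, and 2 of 3 in Tet3, which encodes an enzyme that oxidises methylated cytosine. Somatic testis cell genes held 7 of 17, in Gata4 (2 of 3), Pecam1 (2 of 2), Dhh, Pdgfra and Wt1. Pluripotency and early germ cell genes held 3 of 8, all in Esrrb, which encodes a nuclear receptor of pluripotent cells. Zinc finger genes named Zfp, many of which encode KRAB repressors that direct H3K9me3, held 63 of 487 bins (12.9%).

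Within the zinc finger list, Zfp951 held 7 of 14 bins, Zfp729a 4 of 5, Zfp131 3 of 3 and Zfp27 3 of 7. Zfp131 was called over 4 kb in both E13.5 lists and 0 kb in all 6 later lists, and Zfp729a over 5 kb (het) and 6 kb (KO) at E13.5 and 0 or 1 kb later. Families of channels, carriers and adhesion genes lay near or below the share of all genes. Potassium channel genes held 24 of 282 bins (8.51%), of which Kcnq1 held 11 and Kcna1, called over 2 kb in both E13.5 lists and 0 kb later, held 2 of 2. Solute carrier genes held 55 of 633 (8.69%), with Slc10a7, Slc25a13 (3 of 5), Slc25a26 (3 of 3) and Slc7a14 (3 of 3) in front. Cadherin genes named Cdh held 12 of 214 (5.61%), mostly in the long genes Cdh13 (5 of 56) and Cdh4 (4 of 22), and glutamate receptor genes 8 of 168 (4.76%). Serpin (4 of 53), defensin (3 of 28) and keratin genes (1 of 9) held few.

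The large receptor and enzyme families lay at the other end. Olfactory receptor genes held 4 of 351 bins (1.14%), vomeronasal receptor genes 7 of 869 (0.806%), cytochrome P450 genes 5 of 495 (1.01%) and killer cell lectin-like receptor genes 2 of 151 (1.32%). None of the 144 olfactory and 67 vomeronasal receptor genes whose start sites were called in both E13.5 lists was E13.5-only. Their windows held few CG dinucleotides. Over all windows with under 5 that were called in both E13.5 lists, 29 of 673 (4.31%) were E13.5-only. Neighbouring receptor genes can share 1 E13.5 peak. Vomeronasal receptor genes were called over 912 and 1000 kb at E13.5 and from 778 to 1166 kb later, so the E13.5 values lay within the later range.

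**Figure D3:**
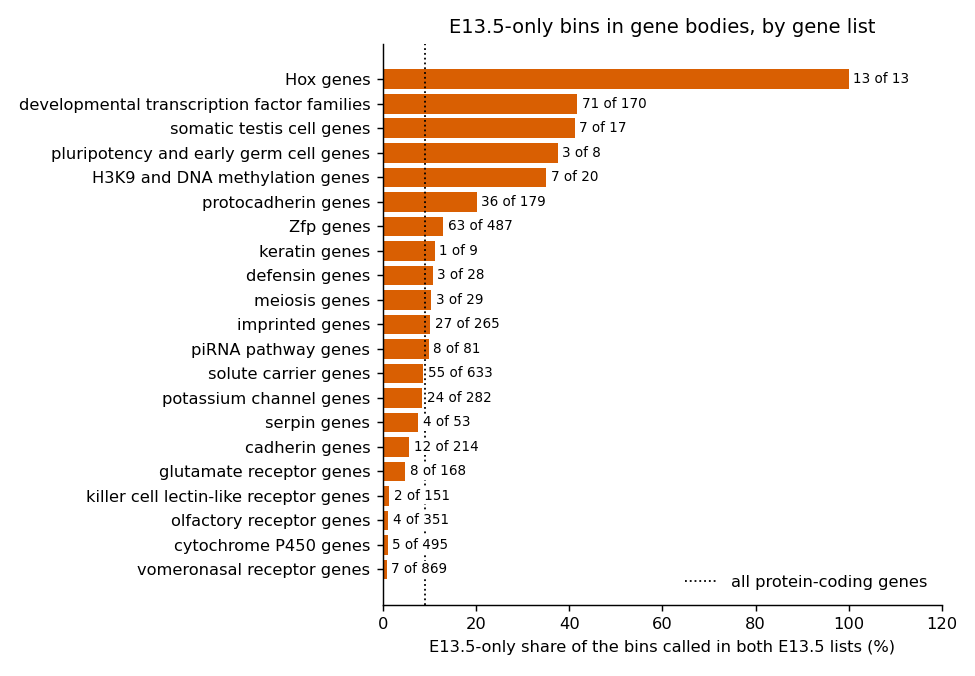
E13.5-only share (%) of the bins called in both E13.5 lists within gene bodies, for each gene list, with the counts beside the bars. Hox genes stand at 13 of 13 and vomeronasal receptor genes at 7 of 869, and the dotted line marks all autosomal protein-coding genes at 8.99%.

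The sites lay inside genes more often than H3K9me3 bins at large. Of the E13.5-only bins, 45.9% (interval 44.6 to 47.3%) had their midpoint in a protein-coding gene, against 16.4% (16.2 to 16.6%) of bins called in all 8 lists, a difference of 29.5 points. The share was higher on 19 of 19 autosomes. It was also above the 40.0% of all autosomal bins, on 17 of 19 autosomes. Along the number of later lists in which an E13.5 bin was called, from 0 to 6, the genic share went 45.9, 31.3, 25.8, 23.0, 20.9, 19.4 and 16.4%. The CpG-rich share of promoter windows went 49.0, 23.5, 15.5, 5, 5.26, 5.88 and 1.35% along the same steps.

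**Figure D4:**
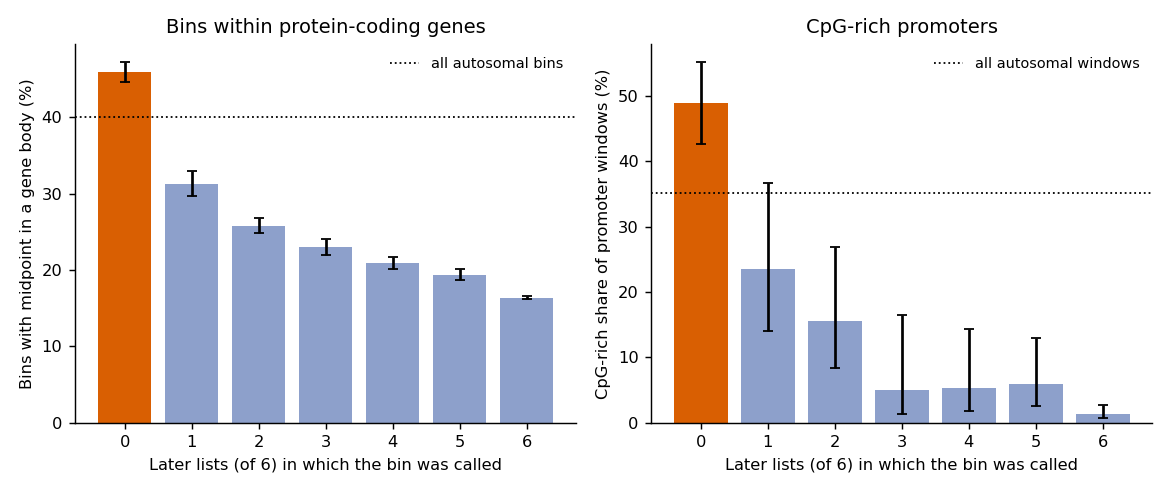
Genic share of bins (left, %) and CpG-rich share of promoter windows (right, %) for bins called in both E13.5 lists, by the number of later lists (0 to 6) in which they were also called; the E13.5-only bins are in orange, bars on the columns are 95% Wilson intervals, and dotted lines mark all autosomal bins or windows. The genic share is 45.9% at 0 later lists and 16.4% at 6.

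Other single-stage bins tell how far these properties belong to E13.5. Bins called in both genotypes at E16.5 only numbered 13251, with a genic share of 18.97%, those at P0 only 11053 (22.7%), and those at P3 only 14597 (50.9%). A high genic share was thus met at P3 as well. The CpG-rich share of promoter windows was 6.90% (4 of 58) at E16.5 only, 16.7% (11 of 66) at P0 only and 0.990% (1 of 101) at P3 only, each with an interval below that of the E13.5-only windows. Bins called in 1 E13.5 list and nowhere else resembled the E13.5-only bins, with genic shares of 46.1% (het alone, 3536 bins) and 42.2% (KO alone, 9701 bins) and CpG-rich shares of 40.8% and 52.4%.

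Most sites were small. Of the 4091 runs, 3127 were 1 bin long (76.4%), 763 were 2 kb, 142 were 3 kb, 39 were 4 kb and 13 were 5 kb, with 4 of 6 kb, 2 of 7 kb and 1 of 8 kb. The E13.5 het peaks that held E13.5-only bins had a median length of 1588 bp against 1878 bp for the other het peaks, and 27.0% of them were of the most common peak length, also the shortest length in that list, against 22.1%. In the KO list the median was 2015 bp against 1895 bp and the share of that length 14.8% against 20.5%. The sites thus lay in shorter peaks than usual in het and in slightly longer ones in KO.

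The surroundings of the runs were read at fixed distances from the middle bin. At 1 kb on either side of the middle bin, the bin was called in 30.8% and 44.4% of runs in E13.5 het and in 41.3% and 53.6% in E13.5 KO, and the 2 sides differ because the lower of the central bins was taken in runs of even length. At 15 kb the share was 10.3% to 14.9% in all 8 lists. At 1 kb from the middle bin, the E16.5 lists were called in 13.3% to 17.6% of runs and the P0 and P3 lists in 7.09% to 10.9%. In runs of 2 kb or more, a bin at that distance can itself be E13.5-only, where the rule sets the later calls to 0, so these values partly follow from the selection.

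**Figure D5:**
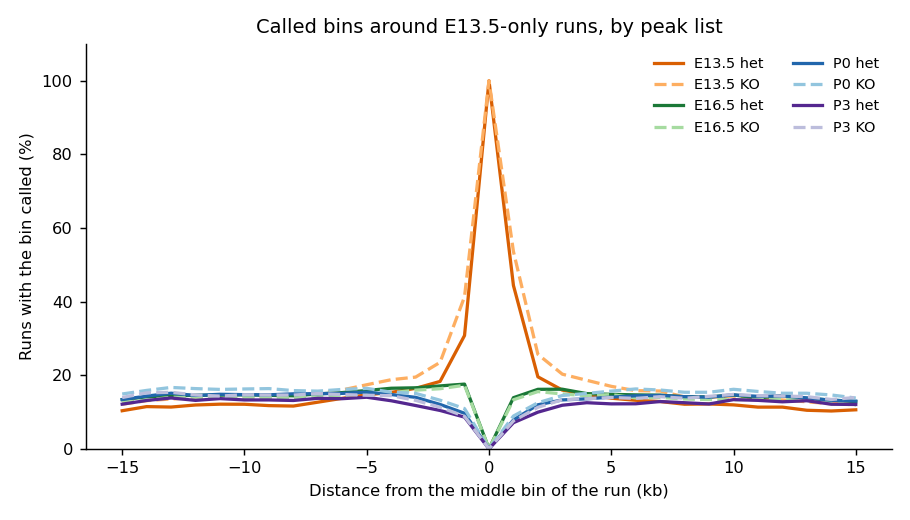
Share of the 4091 runs (%) in which the bin at each distance (kb) from the middle bin of the run was called, with 1 line per peak list. The middle bin is at 100% in both E13.5 lists and 0% in the 6 later lists by the rule, and the lines meet at 10.3% to 14.9% at 15 kb.

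Runs were also classed by whether a later call lay beside them. In 2005 runs (49.0%) a neighbouring bin was called in at least 1 later list. This share depended on the definitions, at 24.3% with the same number of longest peaks from every list, 19.6% when no base of a bin was allowed in a later peak and up to 57.6% with bins of 500 bp. In 2009 runs (49.1%) the E13.5 peaks over the run overlapped no later peak. The median distance to the nearest later peak was 0.698 kb, 848 runs (20.7%) were over 10 kb from any later peak and 43 over 50 kb, up to 164.8 kb. Runs whose E13.5 peaks met no later peak had a genic share of 55.7% over 2635 bins, and 73 of their 143 promoter windows were CpG-rich (51.0%). The other runs had a genic share of 36.4% over 2711 bins, with 46 of 100 windows CpG-rich (46.0%).

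Absence at later stages was complete for most bins. In 3762 of the 5346 bins (70.4%), no base lay in a later peak. This share depended on the definitions, at 55.0% from 75% coverage and 85.7% with the same number of longest peaks from every list. Some coverage remained in 19.2% of bins in E16.5 het and 18.1% in E16.5 KO, in 9.63% and 10.5% at P0 and in 8.29% and 8.60% at P3. Of the bins called in both E13.5 lists and in 1 later list alone, 946 were called in E16.5 het and 626 in E16.5 KO, 598 and 537 in the P0 lists and 197 and 210 in the P3 lists. Both counts were highest at E16.5, the stage next to E13.5. Just inside the rule, 351 bins had 450 to 499 bp in the later list that covered them most, and just outside it 534 bins had 500 to 549 bp. At the E13.5 limit, 590 members had 500 to 549 bp in the less covered E13.5 list, and 747 bins just outside had 450 to 499 bp.

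The longest run spanned 8 kb at chr19:45227001-45235000 and overlapped Lbx1, a homeobox gene of muscle precursors and spinal interneurons. It held 7918 bp in E13.5 het and 8000 bp in E13.5 KO, 184 bp in E16.5 het, 1 bp in E16.5 KO and 0 bp at P0 and P3. A run of 7 kb at chr13:89659001-89666000 lay in Vcan, which encodes the matrix proteoglycan versican, with 7000 bp in both E13.5 lists, 479 bp in E16.5 KO and 0 bp in the other 5 later lists. A run of the same length at chr3:149217001-149224000 lay outside genes, 227.9 kb from Adgrl2, with 7000 bp (het) and 6417 bp (KO) at E13.5 and 0 bp in every later list, 9.52 kb from the nearest later peak. These 3 runs were covered nearly end to end at E13.5.

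The other 7 of the 10 longest runs were 5 or 6 kb. They lay in Pcmtd1 (chr1:7123001-7129000), Tmc1 (chr19:20921001-20927000), Terf1 (chr1:15812001-15817000) and Noc2l (chr4:156240001-156245000), and outside genes at chr3:14993001-14999000, chr9:59370001-59376000 and chr1:17249001-17254000. Their coverage was 5000 to 6000 bp in both E13.5 lists and at most 383 bp in any later list. In Pcmtd1, 10 of 19 bins were E13.5-only, and the gene was called over 19, 9, 3 and 3 kb in the het lists from E13.5 to P3 and over 20, 10, 5 and 4 kb in the KO lists.

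Among genes outside the nested protocadherin models, Nxpe4 (8 of 8 bins), Smg1 (6 of 6), Gstz1 (5 of 5) and Noc2l (5 of 5) had every bin called in both E13.5 lists in the E13.5-only class. Smg1, which encodes a kinase of nonsense-mediated decay, was called at E13.5 over 6 kb (het) and 11 kb (KO), and over 0 kb in all 6 later lists. Gstz1, which encodes an enzyme of tyrosine breakdown, was called over 5 kb and 9 kb at E13.5 and 0 kb later. Over its whole body Nxpe4 was called over 9 and 16 kb at E13.5 and over 1 to 7 kb later. Further genes with many such bins were Slc10a7 (8 of 19), Tshz2 (7 of 11), Vcan (7 of 11), Zfp951 (7 of 14) and Spin1 (7 of 14). Nxpe4, Smg1, Gstz1, Tshz2 and Spin1 were named after their values were seen.

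By windows of 1 Mb, the most E13.5-only bins lay on chromosome 18 from 37 to 38 Mb, the protocadherin clusters, with 27 of 218 bins. Next were chromosome 12 at 115 to 116 Mb, without a protein-coding gene (21 of 360), chromosome 7 at 62 to 63 Mb with Magel2 and Mkrn3 (19 of 508), chromosome 1 at 7 to 8 Mb with Pcmtd1 (17 of 250) and chromosome 5 at 119 to 120 Mb with Tbx3 and Tbx5 (17 of 55). In the order named, the E13.5-only share of these windows was 12.4, 5.83, 3.74, 6.8 and 30.9%, against 3.75% over all autosomes. The chromosome 7 window thus ranked by its many E13.5 bins and not by its share. A further 3 windows also held 17 bins, and the median window held 1. Among autosomes the E13.5-only share was highest on chromosome 11 (268 of 4074 bins, 6.58%) and lowest on chromosome 3 (293 of 11371, 2.58%). Of 919 microRNA hairpins, 37 lay in bins called in both E13.5 lists and 5 of these in E13.5-only bins.

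The genotypes differed in how much E13.5 signal was stage-limited. Taken within het alone, 11330 of 159747 E13.5 bins (7.09%, interval 6.97 to 7.22%) were called in none of the later het lists, and 47.2% of these were E13.5-only in both genotypes. Within KO, it was 20119 of 181988 (11.1%, 10.9 to 11.2%), of which 26.6% were E13.5-only in both. The CpG-rich share of promoter windows was much alike, 45.2% of 372 windows in het and 48.3% of 745 in KO. The KO list at E13.5 was also the longer of the E13.5 pair, 181.9 against 159.7 Mb, and the part of list length in this gap was not tested.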

How the data were processed

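H3K9me3 ChIP-seq was represented by 8 peak lists, 1 for each genotype and stage. Each list, as the authors deposited it, holds the chromosome, start and end of every peak in base pairs, without height, score or p-value. Per the submitters' processing notes the build was mm10 and bcl2fastq 2.20, cutadapt 1.18, Bowtie2 2.3.4.1, deepTools 3.5.0 and HOMER 4.10 were used, with no step assigned to them. Whether the H3 libraries served as control, the pooling of the 2 samples per group and the read depth are not given in the sources used here. The 16 H3 samples were not analysed here.

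Peaks were intersected with 1 kb bins on the 19 autosomes in Python 3.11.15 (NumPy 2.4.6, SciPy 1.17.1, Matplotlib 3.10.9), and a bin was called from 50% coverage. The scripts were tested on simulated lists. Gene bodies (20665 protein-coding genes) and 31388 promoter windows came from RefSeq GRCm38.p6, and bins were assigned by their midpoint and windows by their start site. Shares carry 95% Wilson intervals, and no p-value was computed.

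The sites and gene lists were chosen with earlier results of these data known. Named genes and regions were the 10 longest runs, the 10 genes with most E13.5-only bins, up to 5 genes with the highest share among those with at least 10 bins called in both E13.5 lists, up to 4 genes per list with at least 2 bins, and the 5 windows of 1 Mb with most bins. Other names were chosen after their values were seen. Coverage limit, bin size and phase, peak selection and each list were varied.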

Additional observations from a re-analysis of the deposited data

Results flagged for a closer look

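The X chromosome was outside the rule, which covered autosomes. By the same steps, 164 of its 5369 bins called in both E13.5 lists were called in no later list (3.05%, 95% Wilson interval 2.63 to 3.55%), below the 3.75% of the autosomes and within the autosomal range of 2.58 to 6.58%. It is given here because it is signal in data that the comparisons did not use.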

How the results depend on the processing

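No paired analysis was possible because each list names no replicate, and for the same reason no replicate could be left out. The difference in genic share and the difference in E13.5-only share between promoter classes kept their sign under every alternative. The other results were counts and shares, which cannot change sign, so only the size of their shifts is informative. The count of 5346 bins became 10743 with bins of 500 bp, 2668 with bins of 2 kb, 8134 when every list was reduced to the same number of longest peaks, 15047 without the E13.5 het list and 8882 without the E13.5 KO list. Runs numbered 2483 with bins of 2 kb, 10666 without the E13.5 het list and 6952 without the E13.5 KO list. The E13.5-only share of 3.75% was 3.86% from 25% coverage, 3.61% from 75%, 5.77% with equal numbers of longest peaks, 3.39% without peaks of the most common length and 2.64% when no base of a bin was allowed in a later peak. Without single lists it was 8.27% (E13.5 het), 5.56% (E13.5 KO), 4.42% (E16.5 het), 4.19% (E16.5 KO), 4.17% (P0 het), 4.13% (P0 KO), 3.89% (P3 het) and 3.90% (P3 KO). The genic difference of 29.5 points from bins called in all 8 lists was 27.25 from 75% coverage, 26.6 with equal numbers of longest peaks, 33.6 with no base allowed, 26.8 without E13.5 het, 27.7 without E16.5 KO, 26.4 without P0 het and 27.3 without P0 KO. The CpG-rich share of 49.0%, an analysis added after seeing the data, was 63.4% from 10 CG dinucleotides and 33.7% from 20. The difference of 61.9 points in E13.5-only share between CpG-rich and other windows was 71.9 from 75% coverage and 51.3 with no base allowed. A wider rule admits more bins by construction, and the cause of the other shifts was not tested. Lists without depth cannot show whether a bin below the limit lacks the mark.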
